A study of Mus musculus with 16 samples.

Results

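The genes of the major histocompatibility complex (MHC) and of antigen presentation were taken by name from both comparison tables of the series. A gene was a member when its symbol started with H2- or was Cd74, Ciita, B2m, Tap1, Tap2, Tapbp or Nlrc5. This gave 51 of 23420 listed gene symbols, 44 of them H2- symbols. The class I pathway held 36 members and the class II pathway 12. A further 3 H2- symbols were counted apart, since H2-K2 is annotated as a pseudogene and H2-Ke2 and H2-Ke6 encode proteins with other functions. On average 26 members reached 10 normalized counts in at least 1 table, below which the authors gave no adjusted p, 13 of class I and 10 of class II among them. A gene is named called where its adjusted p (Benjamini-Hochberg, over all genes tested with DESeq2) was under 0.05.

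The H2- genes, Tap1, Tap2 and Tapbp lie on chromosome 17 of the mm10 assembly, as far as the GENCODE annotation holds them. H2-K1 spans chr17:33996017-34000347, H2-D1 chr17:35262730-35267499, H2-Aa chr17:34282744-34287823 and H2-Eb1 chr17:34305867-34316674. Outside it lie B2m (chr2:122147686-122153083), Nlrc5 (chr8:94434356-94527272), Ciita (chr16:10480059-10528418) and Cd74 (chr18:60803848-60812652).

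RNA came from progenitors sorted from mouse bone marrow at 40 weeks of age. Multipotent progenitors (MPP: lineage-negative, Kit+, Sca1+, CD48+, CD150-) can still form several blood lineages, and granulocyte-monocyte progenitors (GMP: lineage-negative, Kit+, Sca1-, CD150-, CD16/32+) are committed to granulocytes and monocytes. For each population, 4 mice carried the label WT, with the genotype Tet2fl/fl, and 4 the label Tet2KO, with the genotype Tet2-/-. The sources used here do not give the driver of the deletion, or whether the floxed controls carried it. Of the 4 mice per genotype, 3 gave both populations. TET2 oxidizes 5-methylcytosine in DNA, and the comparisons ask which transcripts differ between progenitors with and without it. The authors' deposited tables give for each gene a mean over all 8 libraries of a population, the log2 fold change (positive where Tet2KO is higher) and its standard error (SE). They give no value per library, so the values of single mice, the overlap between groups and the depth of each library cannot be given, and p-values rest on the spread over 4 mice per group.

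MHC class I molecules pair a heavy chain with beta-2-microglobulin and show peptides from inside the cell to CD8 T cells. The TAP transporter carries the peptides into the endoplasmic reticulum, where tapasin helps to load them, and NLRC5 switches on class I genes. MHC class II molecules are alpha-beta pairs that show peptides from endosomes to CD4 T cells. The invariant chain CD74 guards their groove until H2-DM exchanges its remnant for a peptide, H2-O restrains that step, and CIITA is the master regulator of class II genes. Class I is made by nearly all nucleated cells, and class II mainly by dendritic cells, B cells and macrophages, although some blood stem and progenitor cells also carry it.

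The populations carried the transcripts of their gates. Ly6a, which encodes Sca1, had a mean of 266 normalized counts in MPP and 19.5 in GMP in the authors' deposited tables, and Fcgr3, which encodes CD16, had 19.3 and 525. Tet2 itself had a log2 fold change of 0.44 (SE 0.0992) in MPP and 0.35 (SE 0.0748) in GMP in the authors' deposited tables, higher in the libraries labelled Tet2KO. The value is for the whole gene and does not show whether a deleted exon is missing, so it does not check the labels, and every direction below is that of the libraries so labelled. Since each library is a bulk of sorted cells, a change in the share of some cells and a change in RNA per cell cannot be told apart.

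Class I transcripts were abundant in both populations. Per kilobase of annotated transcript, B2m, the light chain, reached 34032 normalized counts in MPP and 32389 in GMP, from means in the authors' deposited tables. The classical heavy chains followed. H2-K1 had 5537 per kilobase in MPP and 4184 in GMP, and H2-D1 had 1000.4 and 859.8, again from the authors' deposited means. Among non-classical heavy chains in MPP, H2-T23, which encodes Qa-1 and is read by inhibitory receptors of natural killer cells, had the highest value at 343 per kilobase, ahead of H2-Q4 (290.2), H2-Q5 (220.4), H2-T24 (178), H2-M3, which presents formylated bacterial peptides (157), and H2-T10 (52.7). Tap1 stood at 425, Tapbp at 219.9, Tap2 at 216 and Nlrc5 at 153 in MPP on the same scale. No spread over libraries goes with these levels, so neighbours in this order may not differ.

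Class II transcripts were lower than the leading class I transcripts, and most were lower in GMP than in MPP. In MPP the beta chain H2-Ab1 had 558 per kilobase, the alpha chain H2-Aa 509.8, H2-DMa 507 and Cd74 434, from the authors' deposited means. H2-Ob (230.1), H2-Eb1 (64.0), H2-DMb1 (48.2), H2-Oa (46.0), Ciita (12.3) and H2-DMb2 (9.18) were lower. H2-Aa had a mean of 575 in MPP and 78.9 in GMP in the authors' deposited tables, a ratio of 7.29. The ratio was 6.83 for H2-Eb1, 6.06 for Cd74, 4.19 for H2-Ob, 2.55 for H2-Ab1 and 9.98 for Ciita, whose mean in GMP was 7.38. H2-DMa (ratio 1.33), H2-DMb1 (0.976) and H2-Oa (1.69) lay closer together. Over the 8 class II genes that averaged 10 or more in each table the median ratio was 3.37, over the 13 such class I genes it was 1.34, and over all 11634 such genes it was 0.953. Only 6.37% of those genes had a ratio above 2, against 5 of 8 class II genes and 1 of 13 class I genes. The tables were normalized separately, so these ratios are a description with no test. Each mean also pools both genotypes. H2-Aa, Cd74, H2-Ob and H2-Ab1 are marked as outliers in MPP, so single libraries may weigh on their means there.

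**Figure D1:**
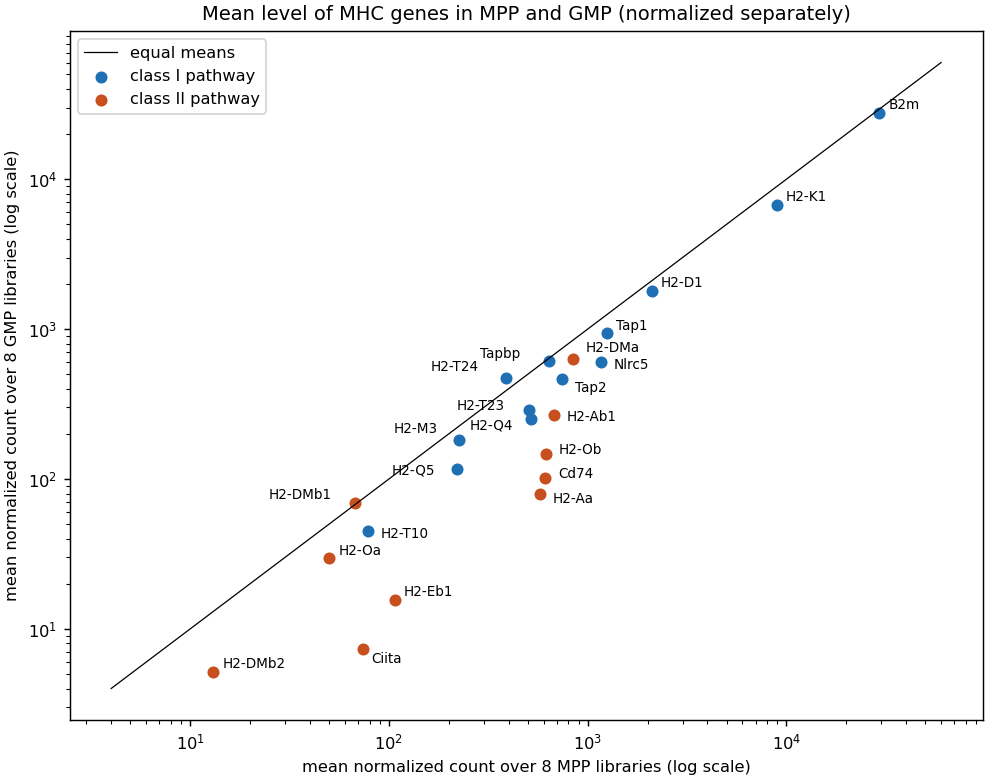
Mean normalized count of each class I (blue) and class II (orange) gene with a mean of at least 10 in a table, over the 8 MPP libraries (x axis, log scale) and the 8 GMP libraries (y axis, log scale), with the line of equal means. H2-Aa, Cd74, H2-Eb1 and Ciita lie furthest below the line among the genes shown, while B2m lies close to it.

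None of the 21 tested members was called in MPP at the authors' adjusted p of 0.05 (DESeq2), where 0.616% of all tested genes were called. An unadjusted p under 0.05 was reached by 4 of the 21, namely Nlrc5, H2-Eb1, Ciita and H2-Q5, all above 0, against 9.72% of all tested genes.

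In MPP the class II genes with the highest values were those of the peptide-binding chains, the invariant chain and the regulator, and none of them was called. Ciita had a log2 fold change of 1.01 (SE 0.340, adjusted p = 0.181) and H2-Eb1 of 0.99 (SE 0.323, adjusted p = 0.149), or 2.01-fold and 1.99-fold, in the authors' deposited DESeq2 table. Their 95% intervals, from the SE and a normal distribution, ran from 1.27 to 3.19-fold and from 1.28 to 3.09-fold. Cd74 had a value of 0.74 (SE 0.215), H2-Aa of 0.57 (SE 0.348) and H2-Ab1 of 0.52 (SE 0.195) in the authors' deposited table, which marks these 3 as outliers and gives them no p. The peptide exchange genes had smaller values in the authors' deposited table. These were 0.50 for H2-DMb2, 0.34 for H2-DMb1, 0.26 for H2-Oa, 0.06 for H2-Ob and -0.03 for H2-DMa, of which H2-Ob and H2-DMa are also marked as outliers. H2-Eb2, a second beta chain gene of the E locus, had a mean of 4.88 and a value of -0.80 (SE 0.379) in the authors' deposited table. Its unadjusted p there was 0.0343 (DESeq2), and it has no adjusted p, so it is not among the tested genes.

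All 5 tested class II genes in MPP lay above 0, as did 4 of the 5 marked as outliers. The median log2 fold change of the tested ones was 0.50, against -0.0038 over all 11859 tested genes, of which 49.1% lay above 0. With the outlier-marked genes the median over the 10 class II genes was 0.51, from the authors' deposited values. These genes share a regulator and were chosen with earlier results known, so the count is a description with no test.

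The sequence before the start of class II genes holds a conserved module of short boxes, on which RFX, CREB and NF-Y assemble and CIITA docks, and class I promoters hold a related module with sites for NF-kB and interferon factors. Windows from 250 bases before to 50 after the start were taken from RefSeq on GRCm38.p6, which holds at least 1 for 34 members, 16 of them among the 26 that averaged 10 or more in a table. The 150 bases before the start are shown for H2-Eb1 and H2-Aa, with values of 0.99 and 0.57 in MPP, for H2-Ob, a class II gene with a value of 0.06, and for the class I genes H2-K1 and B2m, with values of -0.09 and 0.15 there. Capitals mark motifs searched on both strands, namely ATTGG (the Y box core), GCAACNNAT (part of an X box), TGACG (the core of a CREB site), GGGATTCCC (part of an NF-kB site) and TTTCACTTC (part of an interferon response sequence). The capitals of H2-Aa before its Y box hold TGACG on each strand, overlapping, and CCAAT is ATTGG on the other strand.
H2-Eb1: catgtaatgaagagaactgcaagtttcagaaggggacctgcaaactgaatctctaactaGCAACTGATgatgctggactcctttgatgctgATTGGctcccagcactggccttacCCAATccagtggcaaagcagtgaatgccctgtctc
H2-Aa: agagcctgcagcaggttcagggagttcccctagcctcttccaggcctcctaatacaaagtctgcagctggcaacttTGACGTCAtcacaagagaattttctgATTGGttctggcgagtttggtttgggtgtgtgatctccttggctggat
H2-Ob: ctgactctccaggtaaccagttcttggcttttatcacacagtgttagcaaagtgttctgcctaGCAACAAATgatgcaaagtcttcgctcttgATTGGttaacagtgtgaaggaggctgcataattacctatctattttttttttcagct
H2-K1: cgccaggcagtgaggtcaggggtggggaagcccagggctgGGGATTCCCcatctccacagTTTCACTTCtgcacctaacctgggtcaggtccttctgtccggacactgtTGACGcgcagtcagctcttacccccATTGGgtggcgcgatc
B2m: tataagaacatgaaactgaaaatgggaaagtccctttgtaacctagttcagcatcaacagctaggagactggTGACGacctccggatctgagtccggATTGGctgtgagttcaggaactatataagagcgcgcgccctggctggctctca
These stretches lie at chr17:34305717-34305866 on the plus strand for H2-Eb1, at chr17:34287824-34287973 on the minus strand for H2-Aa and at chr17:34238755-34238904 on the plus strand for H2-Ob. They lie at chr17:34000348-34000497 on the minus strand for H2-K1 and at chr2:122147537-122147686 on the plus strand for B2m. The motifs were chosen after these sequences were seen, so the counts below are a description and no test of enrichment. A member counts when any of its windows holds the motif, while the shares are over single windows. ATTGG was present in all 8 class II members with a window and in 22 of 25 class I members, against 37.4% of all 32851 windows. GCAACNNAT was present in 3 of 8 class II and 0 of 25 class I members, against 1.74% of windows. Counted from the start, that match begins at -91 in H2-Eb1 and -87 in H2-Ob, and the Y box core at -59 and -57. GGGATTCCC was present in 4 of 25 class I and 0 of 8 class II members (0.353% of windows), and TTTCACTTC in 7 of 25 and 0 of 8 (0.505%). TGACG was present in 13 of 25 class I members and 1 of 8 class II members (20.8%). Only exact matches were counted, at any position of the window. A missing match therefore does not show that a promoter lacks the box, and a match does not show a working one. H2-Eb1 and H2-Ob, which both hold GCAACNNAT and ATTGG, stood at 0.99 and 0.06 in the authors' deposited MPP table.

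The class I genes of MPP centred near 0. Of 13 tested members 7 lay above 0 and 6 below, with a median log2 fold change of 0.08 in the authors' deposited table. H2-K1 had a value of -0.09 (SE 0.0899) and H2-D1 of -0.07 (SE 0.0979) in the authors' deposited table, with 95% intervals of 0.833 to 1.06-fold and 0.832 to 1.09-fold. B2m had a value of 0.15 (SE 0.119, interval 0.945 to 1.30-fold) in the authors' deposited table. Tap1 (0.09), Tapbp (-0.04) and Tap2 (-0.0042) had adjusted p-values from 0.848 to 0.997 in the authors' deposited DESeq2 table.

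The regulator Nlrc5 and the heavy-chain gene H2-Q5 stood apart from the other class I genes in MPP without being called. Nlrc5 had a log2 fold change of 0.44 (SE 0.130, adjusted p = 0.0833), or 1.36-fold, in the authors' deposited DESeq2 table. H2-Q5, annotated as a polymorphic pseudogene, had a value of 0.51 (SE 0.203) in the authors' deposited DESeq2 table, with an adjusted p of 0.340. The other non-classical heavy chains, H2-Q4 (0.15), H2-T10 (0.13), H2-T24 (0.08), H2-T23 (-0.02) and H2-M3 (-0.09), had adjusted p-values of at least 0.741 in the authors' deposited DESeq2 table. Of the 3 genes counted apart, H2-K2 had a value of 0.34, H2-Ke2, which encodes a prefoldin subunit, of -0.29, and H2-Ke6, which encodes a steroid dehydrogenase, of -0.11 in the authors' deposited table.

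**Figure D2:**
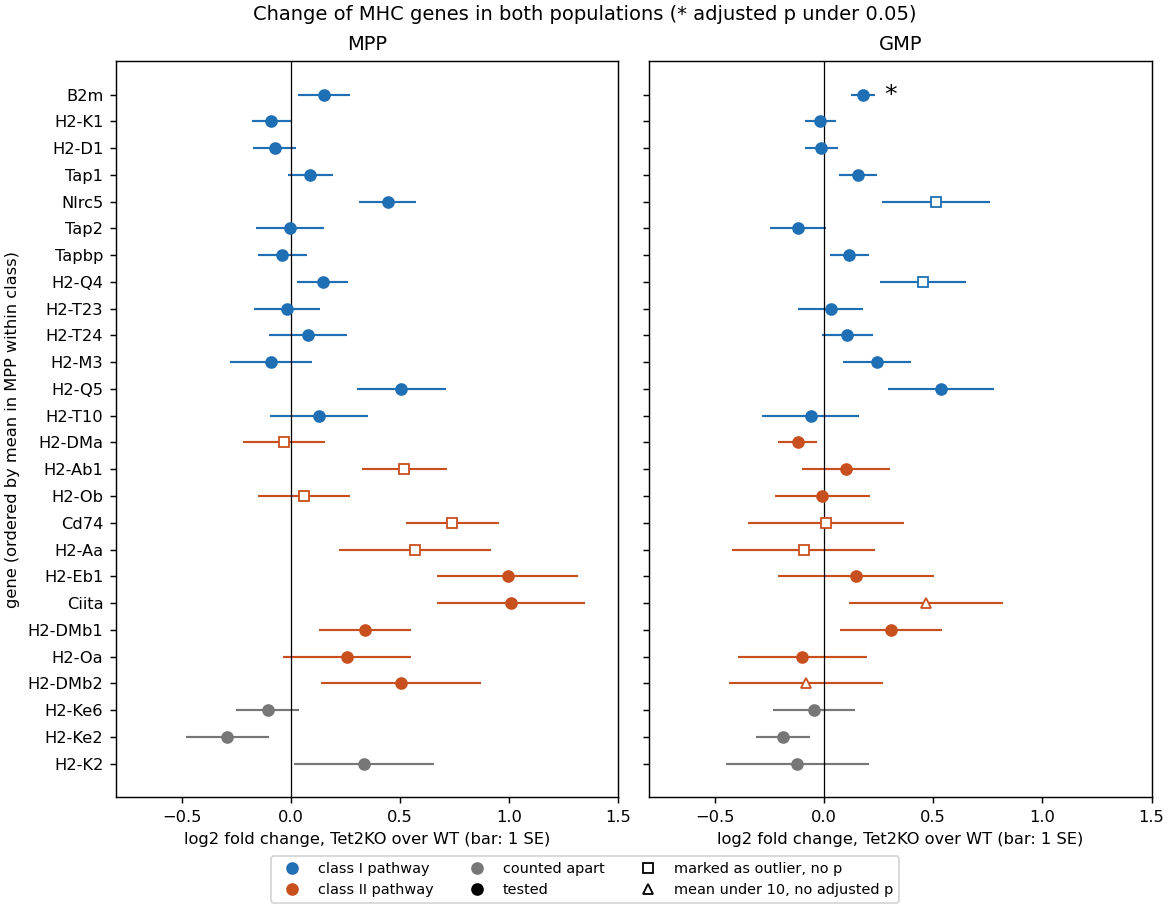
Log2 fold change (Tet2KO over WT, bars 1 SE to each side) for each of the 26 members with a mean of at least 10 in a table, in MPP (left) and GMP (right), with 4 libraries per group. Open squares carry no p, open triangles no adjusted p, and the star marks B2m in GMP, whose adjusted p was 0.0358.

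In GMP the light chain gene B2m rose. It averaged 27854 normalized counts over the libraries and was 1.13-fold higher in Tet2KO, with a 95% interval of 1.05 to 1.22-fold (log2 fold change 0.18, SE 0.0551, adjusted p = 0.0358), in the authors' deposited DESeq2 table. It was the 1 called of 20 tested members, where 3.96% of all tested genes were called, 1.75% higher and 2.22% lower. With the statistic scaled to its spread over all genes (an empirical null), the adjusted p of B2m was 0.497, and over the alternatives run it ranged from 0.0331 to 0.497. An unadjusted p under 0.05 was reached by 2 members, B2m and H2-Q5, against 16.4% of all tested genes.

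The classical heavy chains had values near 0 in GMP with narrow intervals. H2-K1 had a log2 fold change of -0.02 (SE 0.0696) and H2-D1 of -0.01 (SE 0.0774) in the authors' deposited table, which gives log2 intervals of -0.15 to 0.12 and -0.16 to 0.14. The upper ends of both lie below the 0.18 of B2m, but the log2 interval of B2m, 0.07 to 0.29, overlaps both. That difference between genes was not tested. In the authors' deposited DESeq2 table H2-Q5 stood at 0.54 (SE 0.244, adjusted p = 0.228), and it had 0.51 in MPP. H2-M3 (0.24), Tap1 (0.16), Tapbp (0.12), H2-T24 (0.11), H2-T23 (0.03), H2-T10 (-0.06) and Tap2 (-0.12) had adjusted p-values from 0.372 to 0.955 in the authors' deposited DESeq2 table. Nlrc5 (0.51, SE 0.246) and H2-Q4 (0.45, SE 0.196) were marked as outliers in the authors' deposited table and carry no p. Of 11 tested class I genes 7 lay above 0, with a median of 0.11, against 50.1% above 0 over all tested genes.

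Class II genes in GMP lay on both sides of 0. Of 6 tested genes 3 were above 0 and 3 below, none was called, and none reached an unadjusted p under 0.05 in the authors' deposited DESeq2 table. Their median log2 fold change was 0.05. H2-DMb1 had a value of 0.31 (SE 0.234), H2-Eb1 of 0.15 (SE 0.358), H2-Ab1 of 0.10 (SE 0.201), H2-Ob of -0.01 (SE 0.217), H2-Oa of -0.10 (SE 0.295) and H2-DMa of -0.12 (SE 0.0902) in the authors' deposited table. Cd74 (0.01, SE 0.358) and H2-Aa (-0.09, SE 0.329) were marked as outliers, and Ciita (0.47) and H2-DMb2 (-0.08) had means under 10 in the authors' deposited table. The interval of H2-Eb1 ran from 0.680 to 1.80-fold and so held changes of more than 1.5-fold upward. Its SE lay next to the largest in GMP (0.359), a ceiling that shrunken fold changes can give, so the interval may be too narrow. H2-K2, H2-Ke2 and H2-Ke6 stood at -0.12, -0.19 and -0.04 in the authors' deposited table.

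Many class II genes had larger SEs than other genes of like abundance. In MPP, the SE of H2-Aa (0.348) was larger than that of 99.6% of all genes, outlier-marked ones included, whose mean lay within 2-fold of its own. For Cd74 this share was 98.1%, for H2-Ob 97.9%, for H2-DMa 97.3%, for H2-Ab1 96.9%, for H2-Eb1 96.5% and for Ciita 95.3%, from the authors' deposited SEs. Of these genes all but H2-Eb1 and Ciita are marked as outliers, so the large SEs and the marks are not separate results. H2-Oa (59.7%), H2-DMb2 (42.6%) and H2-DMb1 (18.4%) lay among the other genes. The median share over these 10 class II genes was 96.7%, and over the 13 class I genes, which ran from 22.4% for Tapbp to 86.1% for Tap2, it was 67.1%.

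In GMP the large SEs were found in both classes. The median share was 95.2% over 8 class II genes and 64.1% over 13 class I genes. Of class II, Cd74 stood at 99.8%, H2-Aa at 99.0% and H2-DMa at 37.4%, from the authors' deposited SEs. Of class I, Nlrc5 stood at 99.5%, H2-Q4 at 96.6% and H2-Q5 at 94.2%, against 54.2% for H2-K1. Against tested genes alone, which leave out the outlier-marked ones, the medians were 98.8% and 69.4% for class II and class I in MPP, and 96.5% and 65.8% in GMP.

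In MPP the members marked as outliers were all of class II. By default DESeq2 withholds the p of a gene when a single library weighs heavily on its fit. The files give neither the rule behind the marks nor the library. The marks in MPP were not particular to class II, since 5 of 7 GMP markers carried them too. These were the granule genes Mpo (0.54, SE 0.325), Elane (0.35, SE 0.379), Prtn3 (0.26, SE 0.314) and Ctsg (0.05, SE 0.328) and the gene Ms4a3 (0.05, SE 0.368) in the authors' deposited table. Of the 7 GMP markers 6 lay above 0, among them Kit (0.08), which is also an MPP marker, while Fcgr3 stood at -0.13. Of 7 MPP markers 5 lay below 0 and 2 were marked, Flt3 (-0.39) and Hlf (-0.34), in the authors' deposited table. Whether the same libraries set the marks of class II and of these markers was not tested. Among genes averaging 10 or more in MPP, 5 of 10 of class II and 0 of 13 of class I were marked, against 3.5% of all. In GMP, 2 of 8 class II genes and 2 of 13 class I genes were marked, against 2.66% of all. Cd74 and H2-Aa were marked in both tables, H2-Ab1, H2-DMa and H2-Ob in MPP alone, and Nlrc5 and H2-Q4 in GMP alone. The marks of both tables are not independent, since 3 mice per genotype gave both populations.

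**Figure D3:**
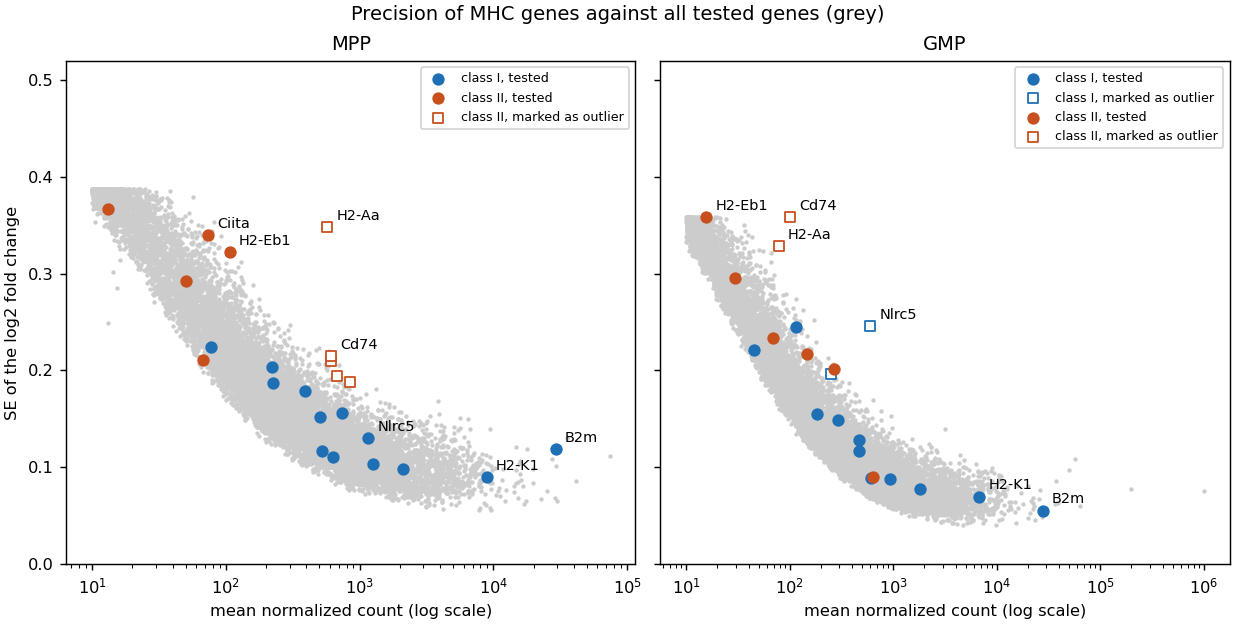
SE of the log2 fold change (y axis) against the mean normalized count (x axis, log scale) of all tested genes (grey), class I genes (blue) and class II genes (orange) in MPP (left) and GMP (right). Open squares are genes marked as outliers, and H2-Aa in MPP (SE 0.348) lies above all grey points with a mean within 2-fold of its own.

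Markers of other cells that make class II were examined beside these values. In MPP the 9 dendritic cell markers had summed means of 3108 normalized counts, of which 2886 came from Flt3, which MPP themselves express, and 5 of 9 had values above 0. Xcr1 (mean 55.6, value 0.86, marked as an outlier), Clec9a (94.0, 0.36, marked as an outlier) and Itgax (33.0, 0.64, adjusted p = 0.526) lay above 0, and Ccr7 (17.2, -0.72) and Zbtb46 (12.9, -0.47) below, in the authors' deposited DESeq2 table. Siglech, the marker of plasmacytoid cells, had a mean of 1.81. Of 8 B cell markers 6 had means under 10, among them Ms4a1 (0.507), and the largest was Cd79b (111, value -0.0023). All 7 macrophage markers lay below 0 in MPP, with means from 2.37 to 30.9 in the authors' deposited table. In GMP the 9 dendritic cell markers summed to 657, of which Flt3 gave 602, and Clec9a and Xcr1 had means of 17.2 and 10.04. The B cell markers summed to 177 in GMP, with Ms4a1 at 0, and the macrophage markers to 101. The 7 T and NK cell markers summed to 736 in MPP and 1959 in GMP, nearly all from Nkg7, and the 5 endothelial markers to 1563 and 1444, mostly from Pecam1. The part of such cells in the class II values was not tested.

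The response of the members did not pass a test of the difference between populations. Of 31 members with a p in both tables none was called for the difference of log2 fold changes (adjusted over 17660 genes, smallest adjusted p = 0.9999), where 0.0453% of genes were called. None of the 31 reached an unadjusted p under 0.05, against 3.58% of all genes. Only 17 of the 31 averaged 10 or more in both tables. The others averaged less in at least 1 of them, many near 0, so their lack of a call says little. The largest difference among members averaging 10 or more in each table was that of H2-Eb1, at -0.85 for GMP minus MPP (SE 0.482, unadjusted p = 0.0788 by the normal test). For Ciita it was -0.54 and for H2-M3 0.33. B2m, at 0.15 in MPP and 0.18 in GMP in the authors' deposited tables, differed by 0.03 (SE 0.131), so its call in GMP alone does not show a difference between populations. Cd74, H2-Aa, H2-Ab1, H2-DMa, H2-Ob, Nlrc5 and H2-Q4 could not be tested, since at least 1 table gives them no p. The test takes the 2 errors as independent, while most mice are shared.

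Many class I genes were at or near 0, and the H2 family holds some near-identical copies, between which reads may be split or lost. In MPP 25 members had a mean under 10, of which 10 were listed at exactly 0, and in GMP 27 and 9. The H2-M genes other than H2-M3 had means of at most 1.33. For the 47 members found in the GENCODE annotation of the mm10 assembly, the share of 75-base words, the length of the reads, that no other annotated gene holds was computed for 1 transcript per gene. It was 98.4% for H2-K1, 92.9% for H2-D1 and 100% for B2m, Nlrc5, Cd74, Ciita, H2-Aa, H2-Ab1, H2-Eb1, H2-DMa and H2-Ob. It was lower for H2-Q7 (72.5%), H2-T22 (73.9%), H2-T10 (76.7%), H2-Q4 (78.3%), H2-Q6 (78.9%), H2-Q5 (79.2%), H2-DMb2 (79.1%) and H2-DMb1 (80.9%). H2-T10 shared 23.3% of its words with H2-T22, and H2-DMb1 19.1% with H2-DMb2. H2-Q6 and H2-Q7 are listed at 0 in both tables, and H2-T22 had means of 1.22 and 0.232. Other genes listed at 0 in MPP share few words. The unshared part was 100% for H2-M1, H2-M9 and H2-M11, 98.7% for H2-M10.4, 96.3% for H2-M10.3 and 96.0% for H2-M10.5. H2-L, H2-Q8, H2-Q9 and H2-T9 were listed with means of at most 1.14 and are not in that annotation. Words shared with these genes were therefore not counted, and the shares of other H2 genes are upper limits. Whether shared reads account for the values of 0 was not tested. The levels of the genes with many shared words, such as H2-Q4, H2-Q5 and H2-T10, are therefore uncertain, while H2-T24 (99.5%) shares few. H2-Ke6 shares 69.9% and H2-Oa 17.3% of its words with an overlapping gene, Gm20427 and BC051537, and the reads carry no stated strand.

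Genes that supply and load class I peptides were mostly below 0 in both populations. Of 11 tested in MPP 9 lay below 0 and none was called, and of 12 tested in GMP 9 lay below 0 and 1 was called in the authors' deposited DESeq2 table. Over all tested genes 0.616% were called and 49.1% lay above 0 in MPP, and 3.96% and 50.1% in GMP. The called gene was Canx, which encodes the chaperone calnexin. In the authors' deposited DESeq2 table it fell by 0.18 in log2 units (SE 0.0579), with an adjusted p of 0.0435, which the empirical null took to 0.528. The inducible proteasome subunits Psmb8 (-0.15 in MPP, -0.07 in GMP), Psmb9 (-0.13, 0.13) and Psmb10 (-0.04, 0.04) were not called in the authors' deposited tables. The median of the list was -0.12 in MPP and -0.05 in GMP.

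Of the genes of the endosomal class II route 7 were tested. In the authors' deposited DESeq2 table for GMP, the lysosomal protease gene Ctss, whose product trims the invariant chain, rose by a log2 value of 0.67 (SE 0.140), with an adjusted p of 0.000238. In the authors' deposited table Ctsb, another lysosomal protease gene, fell by 0.28 (SE 0.0776, adjusted p = 0.0131). In MPP neither was called, with values of -0.11 and 0.05, and Ctsl, at -0.46 (adjusted p = 0.392), had the smallest p of the list in the authors' deposited DESeq2 table. The difference between populations was not called for either, with adjusted p-values of 0.389 for Ctss and 0.9999 for Ctsb by the normal test. With the empirical null neither call held in GMP, at adjusted p-values of 0.0576 for Ctss and 0.349 for Ctsb. The list had 1 called higher and 1 called lower in GMP, against 1.75% and 2.22% of all tested genes, and medians of -0.10 in MPP and -0.10 in GMP.

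Among 16 regulators of MHC genes 1 was called, in GMP, where 15 were tested and 3.96% of all tested genes were called. The authors' deposited DESeq2 table for GMP has Irf8, which directs progenitors towards monocytes and dendritic cells, higher by a log2 value of 0.50 (SE 0.131), with an adjusted p of 0.00936, or 0.309 with the empirical null. In MPP it stood at 0.47 (SE 0.238) and was marked as an outlier in the authors' deposited table. The RFX subunits that bind the X box, Rfx5 (0.19 in MPP, 0.12 in GMP), Rfxank (0.03, -0.04) and Rfxap (-0.38, 0.22), were not called, and neither were Nfya, Nfyb, Nfyc or Creb1 in the authors' deposited tables. Of the interferon gamma receptor and its kinases, Ifngr1, the ligand-binding chain, fell by 0.45 in GMP (SE 0.121, adjusted p = 0.00983) and stood at 0.00052 in MPP in the authors' deposited DESeq2 tables. The difference between populations was not called for Ifngr1 (adjusted p = 0.9999 by the normal test), and its call in GMP was lost with the empirical null (adjusted p = 0.315). Jak1 (-0.13, adjusted p = 0.0676), Jak2 (-0.19) and Ifngr2 (0.04) were not called in GMP in the authors' deposited DESeq2 table. These lists were put together with earlier results of the same tables known, which already showed Ctss, Irf8 and Ifngr1.

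**Figure D4:**
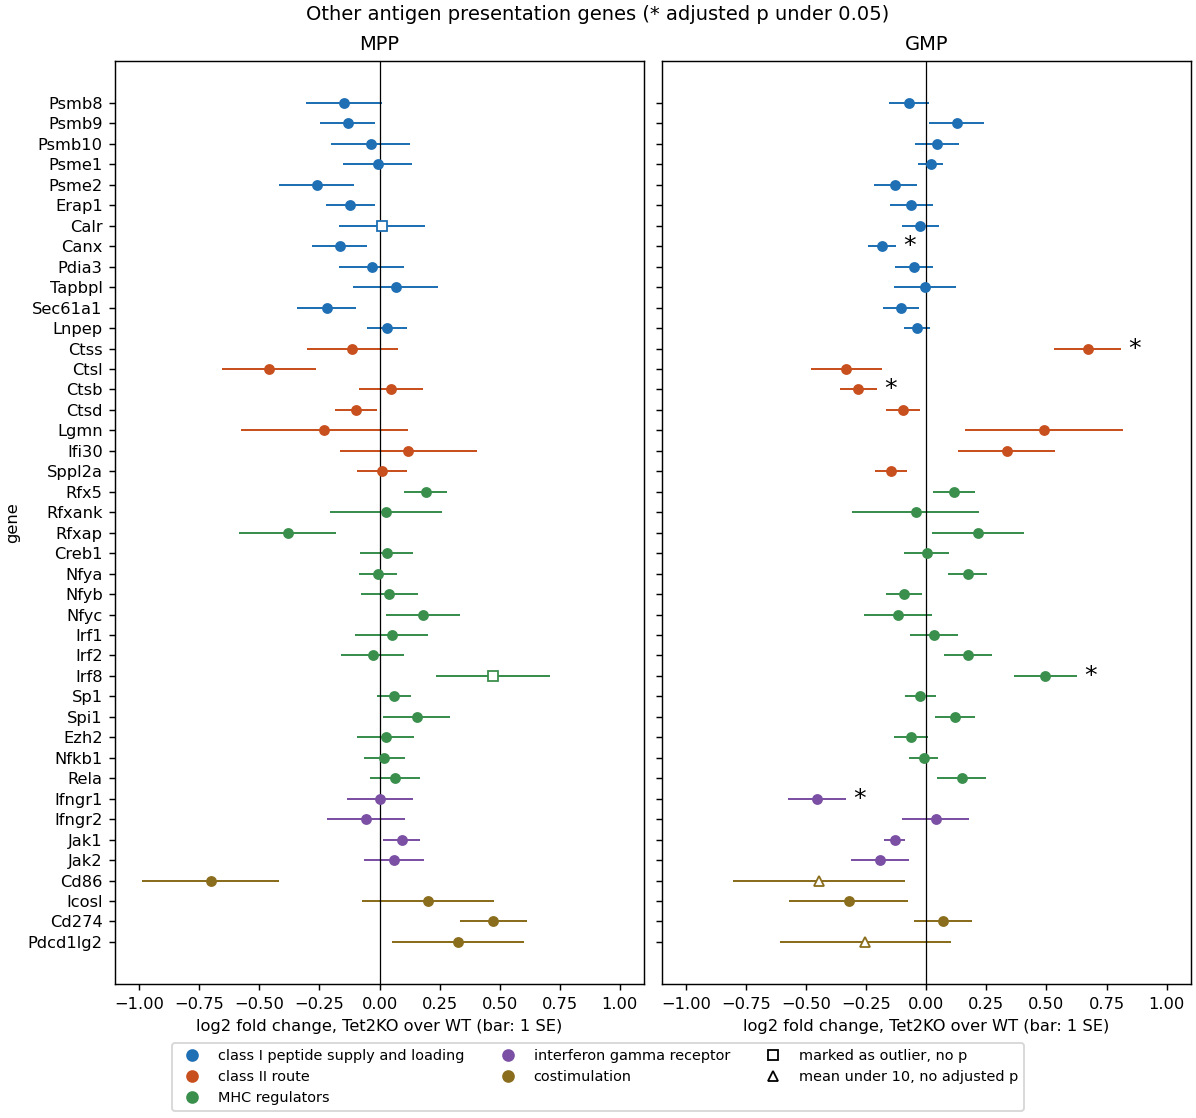
Log2 fold change (Tet2KO over WT, bars 1 SE to each side) for other genes of antigen presentation tested in at least 1 table, coloured by list, in MPP (left) and GMP (right), with 4 libraries per group. Stars mark Canx, Ctss, Ctsb, Irf8 and Ifngr1, which were called in GMP, and no gene shown was called in MPP.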

How the data were processed

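RNA was amplified from 2 ng per library and sequenced as single-end reads of 75 bases, per the labels' protocols. Per the submitters' processing notes STAR, DESeq2 and mm10 were used, without versions. The counter and the annotation are not named in any source used here. The mean is the authors' deposited normalized signal per gene over 8 libraries. The log2 fold changes and SEs are the authors' deposited values, and their direction rests on the names of the tables. The p-values and adjusted p-values were deposited by the authors, for genes with a mean of at least 10 not marked as outliers in the adjusted case. Recomputation gave the adjusted p within 2.4e-05. SEs reached at most 0.388, a ceiling that shrunken fold changes can give, so changes of weak genes may be understated and intervals too close to 0. Depth per library is unknown.

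Genes were called at an adjusted p of 0.05. GMP minus MPP was tested two-sided against a normal distribution, with an SE from the sum of both squared SEs. The p-values were adjusted over all genes with a p in both tables. A check on simulated data used independent errors and planted differences larger than those of the members. It therefore does not cover smaller differences or the errors of shared mice. Lengths and 75-base words come from 1 GENCODE transcript per gene (the principal one, otherwise the longest), with exact matches on both strands. Computations ran in Python 3.11.15 with scipy 1.17.1, pandas 2.3.3 and numpy 2.4.6, and plots in matplotlib 3.10.9. All members with a mean of at least 10 in a table are named, and of other lists the called genes and those of smallest p, with further genes named by role as values. Members and lists were chosen with earlier results of these data known. The motifs were chosen after the promoter sequences were seen, and were counted over the whole windows. Marchf1 and Marchf8 had no usable row, and Spi1 and Adgre1 were found under older symbols. Mouse numbers in the labels show the mice shared by both populations. Some genes of the lists count in their totals and are not reported here.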

Additional observations from a re-analysis of the deposited data

How the results depend on the processing

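For single members, 116 of 117 alternative values stayed on their side of the threshold. The alternatives were a minimum mean of 50, recentring on the median and an empirical null. The exception was B2m in GMP with the empirical null (adjusted p = 0.497). Apart from B2m in GMP, all of these members were uncalled from the start. The empirical null scaled the statistics down, by 1.15 in MPP and 1.35 in GMP, so their staying uncalled says little. The number of members called in GMP was 1, and it was 0 at an adjusted p of 0.01 and 0 with the empirical null. In MPP it was 0, and 1 (Nlrc5) at an adjusted p of 0.1. The share of all tested genes called at these other settings is not given here, so these counts cannot be set against it. Class II members above 0 in MPP numbered 5, and 9 with outlier-marked genes included. The call for the difference between populations stayed at 0 under the 3 alternatives run. For the 5 called genes of the other lists, chosen for this after seeing the data, the empirical null gave adjusted p-values from 0.0576 (Ctss) to 0.528 (Canx), so none stayed called. How many calls among all genes were lost in this way is not given, so the loss is not particular to these genes. No paired analysis was possible because the tables hold no values per library, and leaving out each replicate was not run for the same reason. A single library may therefore carry any value here. For low genes such as H2-Eb1 in GMP (SE 0.358) the 95% interval reached from 0.680 to 1.80-fold, and it may be too narrow where fold changes were shrunken.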

Other observations

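Class I like genes outside the complex and costimulatory genes had few values of size. Of 7 tested class I like genes in MPP and 5 in GMP none was called (DESeq2, the authors' deposited tables). Cd1d1, which presents lipids, had values of 0.09 in MPP and -0.13 in GMP, and Mr1, which presents vitamin B metabolites, of -0.20 and 0.19, in the authors' deposited tables. Azgp1 and Raet1e were listed at 0 in both. Of 4 tested costimulatory genes in MPP none was called. The checkpoint ligand gene Cd274, which encodes PD-L1, had a log2 fold change of 0.47 (SE 0.140, adjusted p = 0.0919) in MPP and 0.07 (SE 0.121) in GMP in the authors' deposited DESeq2 tables. Cd86, a ligand of CD28, had a value of -0.70 (SE 0.286, adjusted p = 0.347) in MPP and a mean under 10 in GMP in the authors' deposited DESeq2 table. The difference of Cd274 between populations was -0.40 for GMP minus MPP (SE 0.185, adjusted p = 0.9999 by the normal test).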
